A study of Mus musculus with 4 samples.

Results

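Short cassette exons are internal exons of at most 50 nt that a transcript can carry or skip. They were taken here as the rows of the deposited cassette table that are 50 nt or shorter and that the table does not class as microexons (MIC), 4058 exons of 54322 cassette rows. The cells were N2a, a mouse neuroblastoma line, which received siRNAs for 48 h, either a non-targeting control (siControl) or siRNA to Arglu1 (siArglu1). They were then given vehicle, which was ethanol (Veh), or the synthetic glucocorticoid dexamethasone (Dex) at 100 nM for 4 h. This makes 4 groups, siControl Veh and siControl Dex as well as siArglu1 Veh and siArglu1 Dex. Each group is 1 library made from the pooled mRNA of 3 cultures of 1 cell line, so no spread between cultures can be given. Inclusion was measured as PSI, the percent of transcripts that carry the exon. A PSI in all 4 libraries was found for 3660 of the short exons, and 2288 of them, in 1775 genes, also had a coverage score of LOW, OK or SOK in 3 libraries or more. These 2288 were compared. Of the others, 398 lacked a PSI in some library and 1372 had too few reads by the score.

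An exon this short leaves little room for the proteins that define an exon from within, and its inclusion often depends on enhancers in the flanking introns. Many such exons are spliced in a neuron-specific manner. Where the length is a multiple of 3, inclusion adds a few amino acids and keeps the reading frame, whereas other lengths shift it and often bring a premature stop codon, which exposes the mRNA to nonsense-mediated decay. ARGLU1 is a nuclear protein that works with the glucocorticoid receptor as a coactivator and binds splicing factors and RNA. The comparisons below ask what loss of Arglu1 did to short exons in vehicle and in Dex, and what Dex did to them with and without Arglu1. The vehicle and Dex knockdown pairs share no library, and neither do the 2 Dex pairs, so each pair can be set against the other.

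The libraries held between 66074574 and 86541444 reads on genes. Arglu1 itself had 10165 and 11825 reads in siControl Veh and siControl Dex against 2637 and 3254 in siArglu1 Veh and siArglu1 Dex. The log2 ratio was -1.92 between the vehicle libraries and -2.15 between the Dex libraries. Of 15 markers of sympathetic neuroblastoma, 12 were at 1 cRPKM or more in every library, while the others, Nefl and Nefm among them, were under 0.1. The summed levels of the markers of fibroblasts, glia and epithelium each stayed at or under 1.15 cRPKM. The siArglu1 Veh library stood apart in coverage: 49.3% of the compared short exons had the top score (SOK) in it, against 61.2% to 64.6% in the other libraries. The number of junction reads behind a PSI is unknown here, since the table gives scores in words.

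The exons that moved most after knockdown in both pairs are shown first, because the results below turn on them. They were ranked, among exons scored OK or SOK in all 4 libraries, by the smaller of the 2 PSI differences with the same sign. The 9 largest falls, apart from that of Atp9b, and the 6 largest rises are shown among exons that are wholly coding and matched in length at both flanking introns. Each sequence was read from a transcript of GENCODE M21 (GRCm38) in the sense direction. The capitals mark the exon, and the lower case letters are the last 15 bases of the exon before it and the first 15 of the exon after it. The first set holds exons that fell, in order of size.
Elmo2: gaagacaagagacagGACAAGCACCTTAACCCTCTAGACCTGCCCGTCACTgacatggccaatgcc
Snx14: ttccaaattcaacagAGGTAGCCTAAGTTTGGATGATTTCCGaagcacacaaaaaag
Clasp2: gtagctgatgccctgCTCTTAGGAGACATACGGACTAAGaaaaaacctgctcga
Tmem184b: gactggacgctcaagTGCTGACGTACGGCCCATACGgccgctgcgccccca
Evi5l: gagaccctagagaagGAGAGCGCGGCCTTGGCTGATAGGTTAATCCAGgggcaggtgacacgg
Ptbp2: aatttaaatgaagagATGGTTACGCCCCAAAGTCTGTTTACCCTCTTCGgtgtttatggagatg
Mef2a: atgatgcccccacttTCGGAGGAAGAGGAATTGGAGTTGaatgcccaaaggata
Epb4.1l3: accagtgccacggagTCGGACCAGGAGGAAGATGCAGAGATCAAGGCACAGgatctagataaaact
Mast2: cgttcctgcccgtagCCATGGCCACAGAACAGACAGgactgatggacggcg

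The second set holds exons that rose, in order of size.
BC024814: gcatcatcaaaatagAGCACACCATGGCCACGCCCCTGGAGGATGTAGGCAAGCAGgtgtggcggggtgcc
Dst: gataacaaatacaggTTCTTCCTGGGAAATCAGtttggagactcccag
Ppfibp1: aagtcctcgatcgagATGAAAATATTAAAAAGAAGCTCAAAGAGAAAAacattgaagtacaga
Bnip2: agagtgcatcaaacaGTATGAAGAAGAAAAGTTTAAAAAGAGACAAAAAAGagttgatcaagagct
Eml4: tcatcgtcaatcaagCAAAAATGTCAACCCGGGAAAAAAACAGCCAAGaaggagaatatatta
Slit2: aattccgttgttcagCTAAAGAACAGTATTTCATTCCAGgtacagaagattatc

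In the coordinates of the deposited table, which follow mm9, the falling exons lie in Elmo2 (chr2:165129166-165129201, - strand), Snx14 (chr9:88295561-88295587, - strand), Clasp2 (chr9:113787868-113787891, + strand), Tmem184b (chr15:79194088-79194108, - strand), Evi5l (chr8:4201934-4201966, + strand), Ptbp2 (chr3:119427530-119427563, - strand), Mef2a (chr7:74389407-74389430, - strand), Epb4.1l3 (chr17:69623222-69623257, + strand) and Mast2 (chr4:116006018-116006038, - strand). The rising exons lie in BC024814 (chr16:8482220-8482260, + strand), Dst (chr1:34353587-34353604, + strand), Ppfibp1 (chr6:146948184-146948216, + strand), Bnip2 (chr9:69852113-69852148, + strand), Eml4 (chr17:83827556-83827588, + strand) and Slit2 (chr5:48612206-48612229, + strand). The falling exons shown had a GC content between 44.4% in Snx14 and 61.9% in Tmem184b. Among the rising exons, those of Ppfibp1 and Bnip2 had the lowest GC content (21.2% and 25%), while that of BC024814 had 63.4%. These values hold for the exons shown only. The median GC content was 47.0% over the 46 exons with a sequence that fell in both pairs. It was 42.4% over the 9 that rose in both and 47.5% over all 1809 short exons with a sequence. The exon of Mef2a holds CGGAGG, which together with CGGGGG is the kind of hexamer that ARGLU1 protein was found to bind. On the sense strand, 1 of the 46 exons with a sequence that fell in both pairs held either hexamer (2.17%), against 16 of the 1809 compared short exons with a sequence (0.884%). Intron sequence was not used here.

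Loss of Arglu1 mostly lowered the inclusion of those short exons that moved. In vehicle, 135 of the 2288 differed by 15 PSI or more, of which 34 were higher (1.49% of the 2288) and the others lower (4.41%), while over all 32973 cassette rows compared 1.36% fell and 1.02% rose. In Dex, a pair that does not use the siArglu1 Veh library, 71 short exons fell (3.1%) and 26 rose (1.14%), against 1.03% and 0.858% of all rows. A change of at least 15 PSI in the same direction in both pairs was found for 47 exons that fell (2.05%) and 10 that rose (0.437%), and the same rule took 0.494% and 0.303% of all rows. The exons over 50 nt gave 94 falls and 90 rises in both pairs among 30387. These counts follow a rule of size, and no test was made, since each pair has a single library on either side.

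**Figure D1:**
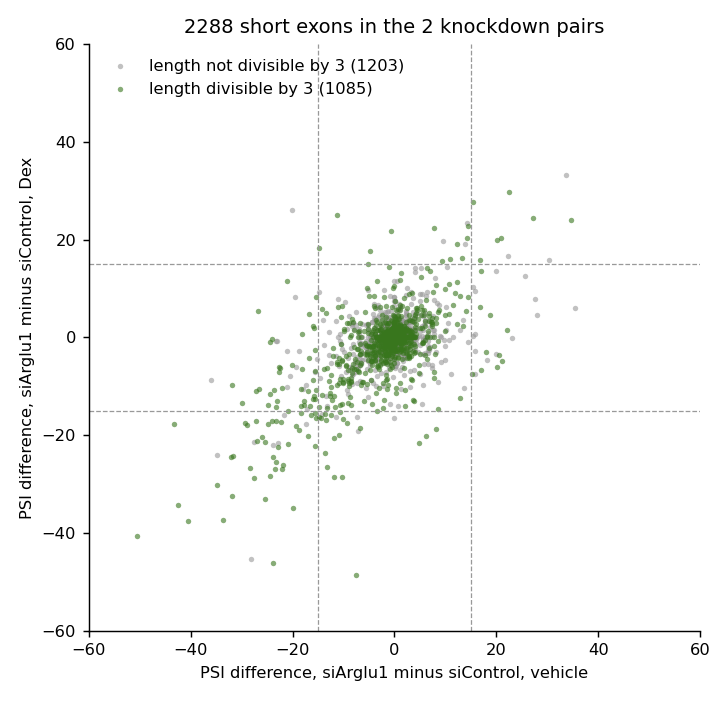
Each point is 1 of the 2288 short exons, with its PSI difference (siArglu1 minus siControl) in vehicle on the x axis and in Dex on the y axis, green where the length is divisible by 3 (1085 exons) and grey where it is not (1203). Dashed lines mark 15 PSI: the lower left corner, with falls in both pairs, holds 47 exons and the upper right corner 10.

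Of the 135 short exons called in vehicle, 115 had the same sign in Dex (85.2%), and over all cassette rows 645 of 787 calls did. Among exons over 50 nt, 500 of 619 did, so this agreement is not particular to short exons. The exact Clopper-Pearson interval of the 85.2% was 78.1% to 90.7%. It treats the exons as independent, which those of 1 gene are not, and covers no spread between cultures. Without the minimum on coverage, the share with the same sign was 55.7% of 384 short exons called. Across the 2288 exons, which are not independent replicates, the differences in the 2 pairs had a Pearson correlation of 0.615. It was 0.84 over the 1052 exons with the top score in every library. The exons over 50 nt had a correlation of 0.434, or 0.682 with the top score in every library, and the microexon rows had 0.767. The PSI of both siArglu1 libraries lay below that of both siControl libraries for 558 exons (24.4%, against 15.1% of all rows) and above it for 329 (14.4%, against 15.9%). The median difference over all 2288 was 0.0 in both pairs, since most short exons are near 0 or 100 in every library. In siControl Veh, 709 were under 10 PSI and 1113 at 90 or more.

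The 14 largest falls lay in 14 genes, among them listed genes of the cytoskeleton (Elmo2, Clasp2 and Epb4.1l3), membrane traffic (Snx14), transcription (Mef2a) and splicing (Ptbp2). The 36-nt exon of Elmo2, an adaptor through which Dock proteins activate Rac, was at 65.65 PSI in siControl Veh and 62.52 in siControl Dex, and at 15.03 in siArglu1 Veh and 21.86 in siArglu1 Dex. It fell by 50.6 PSI in vehicle and by 40.7 in Dex, the largest fall by this ranking. The libraries of the 2 siRNAs did not overlap, which a ranking by both differences favours. The 27-nt exon of Snx14, a sorting nexin of the endosomal and lysosomal system, went from 62.22 and 55.45 to 21.78 and 17.95. The 24-nt exon of Clasp2, which stabilizes microtubule plus ends, went from 68.05 and 59.29 to 25.56 and 24.93. In these exons the form that carries the exon was the major one in siControl and the minor one in siArglu1. The 33-nt exon of Atp9b, a phospholipid flippase, followed with 64.37 and 71.05 in siControl and 30.8 and 33.75 in siArglu1. The 21-nt exon of Tmem184b, a transmembrane protein, had 43.33 and 45.16 against 11.36 and 12.79. The 33-nt exon of Evi5l, whose TBC domain acts on Rab GTPases, had 64.5 and 57.38 against 29.61 and 27.29. All 6 of these exons keep the reading frame.

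The 34-nt exon of Ptbp2, the neuronal polypyrimidine tract-binding protein that represses many neuronal exons, behaved otherwise in its frame. It was nearly always included in siControl (90.33 and 89.77) and less so in siArglu1 (62.15 and 44.52). In the matched transcript, skipping it puts a stop codon 9 codons after the new junction and over 50 nt before the last one. The mRNA of Ptbp2 was also lower, at 71.63 and 70.08 cRPKM in siControl against 21.16 and 20.82 in siArglu1, with log2 ratios of -1.73 (vehicle) and -1.76 (Dex). The level of the mRNA and the inclusion of this exon thus fell together in both pairs, and whether one bears on the other was not tested. In bulk mRNA, fewer cells that express a gene and less mRNA per cell cannot be told apart.

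The 24-nt exon of Mef2a, a MADS-box transcription factor of muscle and neurons, went from 41.22 and 38.64 to 13.57 and 9.93. The 36-nt exon of Epb4.1l3, a band 4.1 protein that ties the membrane to the cytoskeleton, went from 62.04 and 58.5 to 33.72 and 31.75. The 21-nt exon of Mast2, a microtubule-associated serine/threonine kinase, went from 65.75 and 66.75 to 40.37 and 33.61. The siArglu1 libraries lay below the siControl libraries in each of them, as in the other exons of this ranking, which favours such exons. The 18-nt exon of 2410002O22Rik had 54.97 and 48.07 against 22.98 and 23.54. The 48-nt exon of Itgb3bp, a protein of the kinetochore and a coregulator of nuclear receptors, had 77.88 and 80.0 against 53.41 and 51.66. Its read balance was scored B2, a word for unbalanced junction reads, in every library, as was that of Ctsa below. Among other exons named below, those of Atl2, Bin1, Tbp and AU019823 had B2 or Bn, also unbalanced, in some or all libraries. The 44-nt exon of Cldnd1, a claudin-domain protein, had 57.45 and 50 against 22.71 and 25.97. The transcript that best matched the last of these was a noncoding one of its gene. The 18-nt exon of Fryl, a furry-like protein, varied more within each siRNA, with 54.73 and 68.39 in siControl and 30.82 and 22.32 in siArglu1.

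Rises were fewer, and of the 10 ranked, Dst, Ppfibp1 and Eml4 are listed genes of actin, microtubules and motors. The 41-nt exon of BC024814 was at 34.7 and 31.39 PSI in siControl and at 68.33 and 64.65 in siArglu1, so that it rose by about the same amount in vehicle (33.6) and Dex (33.3). In its matched transcript, skipping gives a stop codon 76 codons after the new junction. The 18-nt exon of Dst, the giant cytoskeletal linker dystonin, rose from 45.14 and 44.3 to 72.25 and 68.78. The 33-nt exon of Ppfibp1, a liprin-beta of adhesion sites, rose from 8.28 and 9.27 to 29.13 and 29.68. Exons that siControl cells mostly skipped thus also rose. The 36-nt exon of Bnip2 went from 4.54 and 5.75 to 21.25 and 21.5. The 33-nt exon of Eml4, a microtubule-associated protein, went from 57.03 and 51.14 to 72.49 and 78.81. These 5 passed 15 PSI in both pairs. The exons of Rad54b, Psma3, Itpr1 and 2210018M11Rik also did, but 1 or more of their libraries were scored LOW or less. Another 4 of the ranking of rises passed it in 1 pair only: the 24-nt exon of Slit2, a secreted guidance cue (14.45 and 22.87), the 43-nt exon of Ctsa, a lysosomal carboxypeptidase (14.27 and 23.42), the 35-nt exon of Gm773 (13.77 and 19.17) and the 49-nt exon of Apip, an enzyme of methionine salvage (19.91 and 13.59), each given as the difference in vehicle and in Dex.

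**Figure D2:**
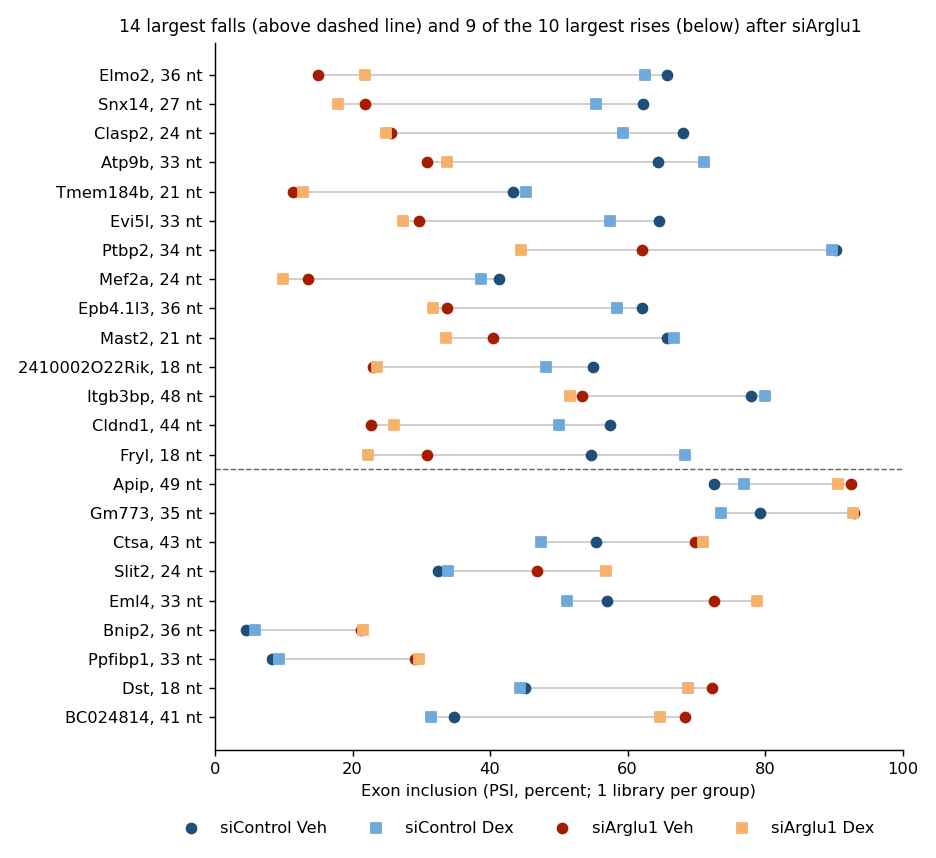
PSI (x axis, percent) of the 14 short exons with the largest falls and 9 of the 10 with the largest rises after siArglu1, 1 row per exon, with blue points for the siControl and red or orange points for the siArglu1 libraries (circles Veh, squares Dex). In every row the 2 siArglu1 points lie on the same side of both siControl points, from Elmo2 at the top (65.65 and 62.52 against 15.03 and 21.86) to BC024814 at the bottom (34.7 and 31.39 against 68.33 and 64.65). The rows were picked by the size of both differences, which favours this separation.

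The excess of falls lay in the shorter exons and in those of a length divisible by 3. In vehicle, 4 of 24 exons up to 15 nt fell and 1 rose. At 16 to 20 nt, 9 of 77 fell and 1 rose. At 21 to 30 nt, 37 of 381 fell (9.71%) and 5 rose. From 31 nt on, the falls became a smaller share. At 31 to 40 nt, 30 of 667 fell (4.5%) and 11 rose, and at 41 to 50 nt, 21 of 1139 fell (1.84%) and 16 rose. The share of 1.25% at 51 to 100 nt, where 136 of 10889 fell and 126 rose, and of 0.812% at over 100 and up to 150 nt were lower still. In Dex, 2, 4, 29, 19 and 17 exons of the same 5 bins fell, in order of length, and 0, 1, 4, 7 and 14 rose. Just inside the limit of 50 nt, at 48 to 50 nt, 9 of 387 exons fell and 3 rose in vehicle. Just outside it, at 51 to 53 nt, 1 of 414 fell and 4 rose, and at 54 to 56 nt, 10 of 453 fell and 6 rose. In Dex the order across the limit was the other way, with 6 falls and 3 rises at 48 to 50 nt and 10 falls and 3 rises at 51 to 53 nt.

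Of the 1085 short exons with a length divisible by 3, 79 fell (7.28%) and 17 rose in vehicle, and 59 fell and 19 rose in Dex. Of the 1203 others, 22 fell (1.83%) and 17 rose in vehicle, and 12 fell and 7 rose in Dex. At 16 to 20 nt, 8 of 40 exons that keep the frame fell in vehicle (20%) against 1 of 37 that shift it (2.7%). At 21 to 30 nt, 34 of 251 exons that keep the frame fell (13.5%) against 3 of 130 that shift it (2.31%). Among the 47 exons that fell in both pairs, 40 keep the frame (85.1%), against 47.4% of all short exons compared. Frame goes together with how variable an exon is, and of the 321 short exons at 10 to 90 PSI on average in siControl that passed 15 PSI in neither pair, 57.0% keep it.

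**Figure D3:**
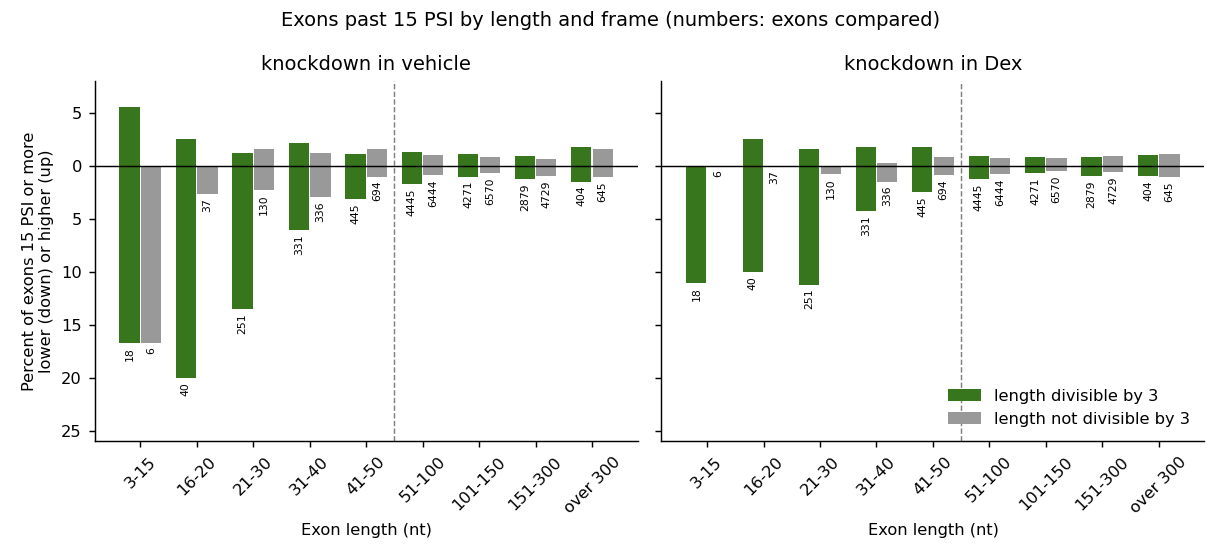
Percent of exons 15 PSI or more lower (bars down) or higher (bars up) after knockdown in vehicle (left) and in Dex (right), by exon length in nt, with green bars for lengths divisible by 3 and grey bars for others, the number of exons compared under each bar, and a dashed line between the short exons and those over 50 nt. The downward green bars reach 13.5% at 21 to 30 nt in vehicle and 1.75% at 51 to 100 nt; each green or grey bar up to 20 nt rests on at most 40 exons.

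An exon can fall or rise by 15 PSI only from some starting levels, so exons were also grouped by their PSI in the siControl library that did not enter the pair. None of the 763 short exons in the bin nearest to full inclusion in siControl Dex moved by 15 PSI in vehicle. Of the 158 at 30 to under 70, 51 fell (32.3%) and 12 rose, with a median difference of -8.57. The 915 exons over 50 nt at that level had 108 falls, 107 rises and a median of 0.03. The 110 short exons of that level with a length divisible by 3 had a median of -12.14, and the 48 others one of -1.64. For the Dex pair, with the level taken from siControl Veh, the medians were -10.14 over 117 exons and -1.38 over 46. The microexon rows of the table, which are not among the exons described here, had a median of -13.66 in vehicle over the 26 rows at that level.

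With both frames pooled, the order by length held at like starting levels. The frame differs between the bins, however. Of all compared exons, 251 of 381 at 21 to 30 nt keep it, 331 of 667 at 31 to 40 nt and 445 of 1139 at 41 to 50 nt. The pooled order thus does not separate length from frame. Among exons at 10 to under 90 PSI in siControl Dex, 4 of 10 up to 15 nt, 8 of 23 at 16 to 20 nt (34.8%), 34 of 118 at 21 to 30 nt (28.8%), 25 of 144 at 31 to 40 nt (17.4%) and 17 of 186 at 41 to 50 nt (9.14%) fell in vehicle. At 51 to 100 nt, 106 of 1478 did (7.17%). Rises made up 0, 1, 5, 9 and 12 exons of the 5 short bins and 104 of the 1478. With the level from siControl Veh, the falls in Dex were 2 of 10, 4 of 26, 24 of 113, 16 of 134 and 16 of 183 in the short bins, and 82 of 1413 at 51 to 100 nt. The share that fell thus went down from bin to bin from 16 nt on in vehicle and from 21 nt on in Dex, and the 2 shortest bins hold too few exons to be ordered. Over all starting levels, from 16 to 20 nt up to 41 to 50 nt, 20%, 13.5%, 6.04% and 3.15% of exons that keep the frame fell in vehicle. Of exons that shift it, 2.7%, 2.31%, 2.98% and 1.01% fell, without such an order. In Dex the shares were 10%, 11.2%, 4.23% and 2.47% against 0%, 0.769%, 1.49% and 0.865%.

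**Figure D4:**
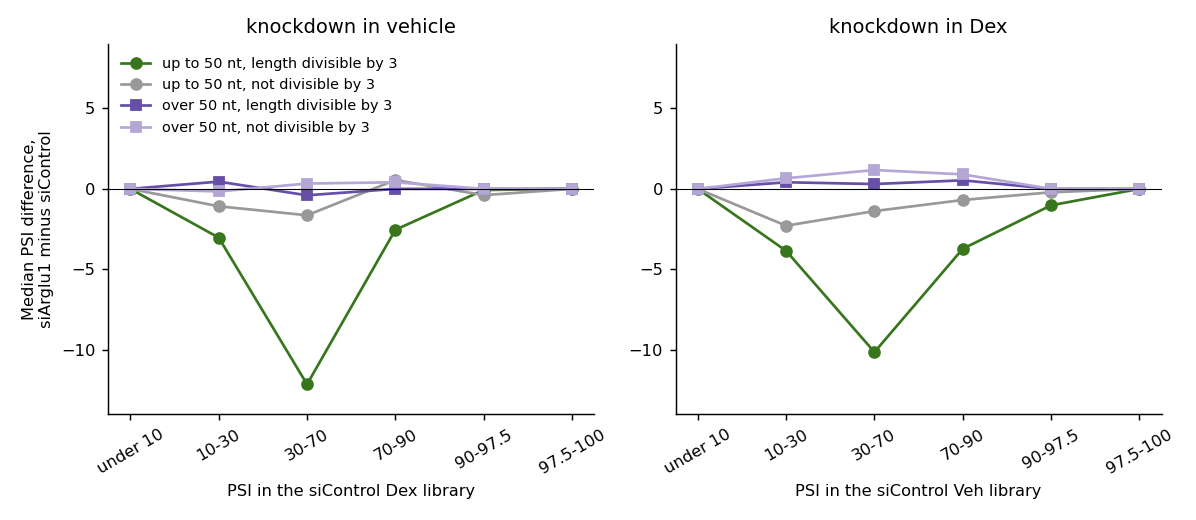
Median PSI difference after knockdown (siArglu1 minus siControl, y axis) in vehicle (left) and Dex (right), by the PSI in the siControl library outside the pair (x axis), for short exons (circles) and exons over 50 nt (squares), each split by whether the length is divisible by 3. The short exons that keep the frame reach -12.14 in vehicle and -10.14 in Dex at 30 to under 70 PSI, while the medians of the exons over 50 nt stay between -0.4 and 1.17.

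By annotation, 1809 of the 2288 exons matched an exon of GENCODE M21 of the same gene with the same length and at least 1 flanking intron of the same length. Of these, 1480 are coding in a protein-coding transcript, and 81 of them fell and 23 rose in vehicle. Of the 84 in a 5′ UTR, 4 fell and 1 rose, and of the 107 in noncoding transcripts, 6 fell and 3 rose. Of the 479 without a match, 3 fell and 4 rose. Over all 2288 short exons, 4.41% fell and 1.49% rose in vehicle. The share of falls was near that in the coding, 5′ UTR and noncoding classes and lower in the exons without a match. Starting levels differ between these classes, and the shares are not adjusted for them. Of the exons that passed 15 PSI in neither pair, 222 of 1346 coding ones averaged 10 to 90 PSI in siControl. Of those without a match, 37 of 472 did. Coding exons that shift the frame numbered 726. A stop codon after skipping could be read for 708 of these, and it lay over 50 nt before the last junction for 604. Among the 708, those that fell in both pairs were in Cd47, Ptbp2, Sgce and Taf15, and those that rose in both were in BC024814 and Psma3. The stop lay over 50 nt before the last junction in Ptbp2, Taf15, BC024814 and Psma3, but not in Cd47 and Sgce. In 3 genes, Cd47, Sgce and Tbp, a pair of short exons fell in both pairs. Exons of 1 gene share its transcripts, and neighbouring ones share junction reads.

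Functional lists of genes, chosen with earlier results of these libraries known, gave the following. Because of that choice, a share of called exons above that of all short exons cannot be read as a result about a list. The counts stand beside 4.41% falls and 1.49% rises over all short exons in vehicle, and 3.1% and 1.14% in Dex. Of 70 genes of actin, microtubules and motors, 42 had 84 short exons compared, of which 18 fell (21.4%) and 10 rose (11.9%) in vehicle, and 11 fell (13.1%) and 4 rose (4.76%) in Dex. Beside those above, the 39-nt exon of Dock11, an exchange factor for Cdc42, had 30.16 and 29.41 in siControl against 6.41 and 5.02 in siArglu1, with a score of LOW in both vehicle libraries. The 27-nt exon of Daam1, a formin that assembles actin, had 58.88 and 43.5 against 15.7 and 25.78, and fell by 15.4 PSI between the siControl libraries alone. In the liprin-alpha genes of synapses and adhesion sites, the 27-nt exons of Ppfia1 (47.87 and 42.43 against 20.7 and 25.29) and Ppfia3 (68.08 and 71.26 against 48.09 and 36.33, with siControl Dex and siArglu1 Veh scored LOW) both fell, whereas that of the liprin-beta Ppfibp1 rose. The 21-nt exon of Arhgef40 had 34.48 and 31.4 against 15.15 and 13.2.

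Of the 49 genes of endocytosis and membrane traffic, 34 had 48 short exons compared, of which 10 fell (20.8%) and 1 rose (2.08%) in vehicle, and 3 fell (6.25%) and 0 rose in Dex, against 4.41%, 1.49%, 3.1% and 1.14% over all short exons. The 18-nt exon of Anxa6, a calcium-dependent membrane-binding annexin, fell from 73.24 and 73.5 to 54.52 and 54.48, while its mRNA was higher in siArglu1, with log2 ratios of 1.36 (vehicle) and 1.37 (Dex). Of the 46 genes of adhesion and the cell surface, 22 had 38 exons compared, with 8 falls (21.1%) and 0 rises in vehicle and 5 falls (13.2%) and 0 rises in Dex. The exons of Cd47, the receptor that signals against phagocytosis, were the 33-nt one (88.05 and 90.42 against 64.8 and 64.86) and the 25-nt one (91.13 and 89.06 against 68.34 and 67.37). Both are near the end of the coding sequence and fell by nearly the same amount. The 35-nt exon of Sgce, the muscle and brain protein epsilon-sarcoglycan, had 50.64 and 43.59 against 28.99 and 27.65, and its 27-nt exon had 92.9 and 93.72 against 76.5 and 77.91. The 18-nt exon of Arvcf, a catenin of cadherin junctions, had 43.76 and 48.13 against 25.42 and 32.62.

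Of the 44 genes of chromatin and transcription, 20 had 39 exons compared, with 8 falls (20.5%) and 4 rises (10.3%) in vehicle and 5 falls (12.8%) and 1 rise (2.56%) in Dex, against the same shares over all short exons, 4.41%, 1.49%, 3.1% and 1.14%. The 45-nt exon of Arnt, the partner of the aryl hydrocarbon receptor and of hypoxia-inducible factors, had 81.98 and 79.75 against 59.09 and 57.38, although siArglu1 Veh was scored VLOW and siArglu1 Dex LOW. The 36-nt exon of Usp34, a ubiquitin protease, had 32.27 and 34.78 against 16.75 and 12.55, again with siArglu1 Veh scored VLOW. The 36-nt exon of Nap1l4, a histone chaperone, had 34.63 and 35.74 against 19.32 in both siArglu1 libraries. Of the 48 genes of RNA binding and splicing, 20 had 34 exons compared, with 4 falls (11.8%) and 1 rise (2.94%) in vehicle and 2 falls (5.88%) and 0 rises in Dex. Beside Ptbp2, the 35-nt exon of Taf15, an RNA-binding protein of the FET family, had 90.68 and 89.17 against 73.23 and 71.39.

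The genes that the study names for splicing in these libraries had 11 short exons compared, of which 1 fell and 1 rose in vehicle and none passed 15 PSI in Dex. This list was chosen by the study on the same libraries. The study's events in these genes can be of any length and type, so the short exons given here need not be among them. The 13-nt exon of Dclk2, a doublecortin-like kinase, had 23.18 and 11.64 PSI in siControl against 2.16 and 1.55 in siArglu1, while its 48-nt exon stayed between 6.23 and 9.44. The 24-nt exon of Tnik, a kinase of Wnt and JNK signalling, had 38.18 and 42.01 against 56.96 and 46.67, so that it differed by 18.8 PSI in vehicle and 4.66 in Dex. The score of its siArglu1 Veh value was N, the lowest of the coverage words, so the rise in vehicle rests on few reads. The 24-nt exon of Bin1, a membrane-curving BAR protein, had 87.54 and 84.24 against 77.99 and 78.46. The 33-nt exon of Numb, an endocytic adaptor that opposes Notch, had 19.76 and 25.41 against 20.15 and 30.97, which overlap. The short exons of Atg16l2, Mpdz and Papola and 3 of Ptprf, a receptor tyrosine phosphatase, differed by at most 4.15 PSI in any knockdown pair. In the bin up to 15 nt, the largest fall by the ranking was in Atl2, an atlastin that shapes the endoplasmic reticulum, whose 15-nt exon had 57.76 and 50.85 against 31.85 and 30.55.

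Dex moved few short exons. In siControl cells, 14 rose (0.612%) and 11 fell (0.481%) by 15 PSI or more, against 0.309% and 0.334% of all rows. In siArglu1 cells, 15 rose (0.656%) and 11 fell (0.481%), against 0.479% and 0.37%. None of the 2288 passed 15 PSI in the same direction in both, while 3 rises and 8 falls did so over all 32973 rows. The largest rises by the smaller of the 2 differences were in Abtb1 (46 nt), at 84.71 in siControl Veh and 97.3 in siControl Dex, and at 88.86 in siArglu1 Veh and 97.03 in siArglu1 Dex, in AU019823 (27 nt, from 20.45 to 35.55 and from 9.78 to 20.31) and in the kinase gene Mink1 (24 nt, from 65.42 to 73.3 and from 68.34 to 82.19). The largest falls were in Iqce (50 nt, from 84.62 to 69.01 and from 92.59 to 81.08), Gm608 (49 nt, from 19.35 to 10.34 and from 15.79 to 7.04) and Ccdc76 (47 nt, from 96.67 to 82.61 and from 100.0 to 91.89). With the top score in all 4 libraries required, 0 of 1052 exons passed 15 PSI in siControl and 1 in siArglu1.

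The mRNA of the host genes was compared to see whether exon and gene moved together. Of the 1775 genes with a compared short exon, 1759 had at least 75 reads over the 4 libraries, and in vehicle 154 of them were lower by 0.81 or more on the log2 scale (8.75%) and 60 higher (3.41%), against 8.77% and 7.0% of all 12497 genes. Of the 44 genes whose short exons fell in both pairs, 8 were lower (18.2%) and 1 was higher (2.27%) in vehicle, and 6 and 1 in Dex. In Dex, 88 of the 1759 were lower and 48 higher, against 741 and 773 of all 12497. The median log2 ratio over the 44 was -0.29 in vehicle and -0.16 in Dex, and over all 1759 it was -0.12 and -0.09. Of the 10 genes with an exon that rose in both pairs, 1 was higher and 0 were lower. Most of the exons that moved in both pairs thus lay in genes whose mRNA stayed within the limit of 0.81. The share of lower genes was nonetheless larger among those with falls than among all host genes, and whether exon and mRNA are linked was not tested.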

How the data were processed

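mRNA was pooled from 3 N2a cultures per group and made into 1 TruSeq V2 library each, sequenced on a HiSeq2500. The submitters' processing notes name Bowtie and mm9. For vast-tools, which the paper names for splicing, the version is not stated in the sources used here. PSI was deposited by the authors per exon and library as a percent, with scores of coverage and read balance in words and no junction reads. They also deposited a count of reads per gene, not normalized, and cRPKM, an RPKM corrected for mappability. 2 unnamed columns with the authors' ratios of cRPKM, Dex over Veh, and the tables of alternative splice sites were not used.

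The table's 14 identical repeats of rows were dropped. An exon was compared if every library gave a PSI and 3 or more had a first score of LOW, OK or SOK. Differences are siArglu1 minus siControl and Dex minus Veh, called at 15 PSI. The named exons were the 14 largest falls and 10 largest rises after knockdown and the 3 and 3 after Dex, ranked as in the text among exons scored OK or SOK in all libraries, exons past 15 PSI in both pairs in listed genes, every compared exon of a gene the study names, and the top exon of each length bin. Members and lists were chosen with earlier results of these data known. Reads were scaled with edgeR 4.0.16 under R 4.3.3 (TMM), and log2 ratios of CPM used a prior count of 1 and at least 75 reads per gene. Exons were matched to GENCODE M21 by gene, exon length and intron lengths, since the builds differ. No test was made, since each pair has 1 library on either side, and an additive fit over the 4 libraries was not run. The scripts were tested on simulated data. Alternatives were other PSI limits, coverage, complexity, read balance, 1 exon per gene, DESeq2 1.42.0 size factors and no filter on reads. 1 named exon and 1 marker are not reported here.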

Additional observations from a re-analysis of the deposited data

Results flagged for a closer look

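The 47-nt exon of Zbtb49, a zinc finger gene, passed 15 PSI in opposite directions in pairs that share no library. With siControl it was at 77.27 PSI in Veh and 60 in Dex, and with siArglu1 at 57.14 in Veh and 86.05 in Dex. The difference after knockdown was -20.13 in vehicle and 26.05 in Dex. The difference after Dex was -17.27 in siControl and 28.91 in siArglu1. Its coverage score was LOW in 3 libraries and VLOW in siArglu1 Veh, and the difference between the pairs was not tested.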

How the results depend on the processing

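A limit of 10 PSI took 236 short exons for knockdown in vehicle, 188 for knockdown in Dex, 76 for Dex in siControl, 84 for Dex in siArglu1 and 122 in the same direction in both knockdown pairs. A limit of 25 PSI took 35, 25, 2, 4 and 11, and 97.1% of the 35 kept their sign in Dex. Without a minimum on coverage the 5 counts were 384, 335, 225, 253 and 114 over 3660 exons, and 55.7% of the calls in vehicle kept their sign in Dex. With OK or SOK in all libraries, Dex gave 10 in siControl and 7 in siArglu1, and the share was 94.6%. With SOK in all libraries, the 5 counts were 48, 42, 0, 1 and 30 over 1052 exons, and the share was 100%. Simple events alone gave 17 for Dex in siArglu1. With 1 exon per gene, the counts were 88 in vehicle, and 15 and 16 for Dex in siControl and siArglu1. Fewer exons entered under the last 4 settings. The other 41 recomputed values stayed within 1.5 times the count given in the report or within its interval, or were medians that stayed at 0.0. Many of them could not move. Keeping 1 row per exon changed no value, since 0 short exons stood on more than 1 row. The medians stay at 0.0 because most short exons are near 0 or 100 PSI. Falls outnumbered rises after knockdown under each of these settings, in vehicle and in Dex. No paired analysis was possible because the groups share fewer than 2 replicate numbers, and with 1 library per group no replicate could be left out. The knockdown pairs in vehicle and Dex were set side by side instead. Counting error of a PSI cannot be given, since junction reads per exon are not in the values used.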

Other observations

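The exons named here were chosen after their values were seen. In the 5′ UTR of Tbp, the TATA-binding protein, a pair of short exons that lie next to each other fell together. The 49-nt exon had 45.62 and 39.27 PSI in siControl Veh and siControl Dex against 18.05 and 17.83 in siArglu1 Veh and siArglu1 Dex, and the 46-nt exon had 48.28 and 42.96 against 24.44 and 20.86. The mRNA of Tbp differed little, with log2 ratios of -0.08 (vehicle) and -0.24 (Dex). Other short exons with falls in both pairs and the top score in every library were in Arfgap1 (30 nt, 58.52 and 62.51 against 36.56 and 36.46), which acts on the Arf1 GTPase of the Golgi, and Upf3b (39 nt, 43.11 and 41.26 against 22.27 and 19.4), a factor of nonsense-mediated decay. The 21-nt exon of Eif4g1, the scaffold of translation initiation, had 68.44 and 62.99 against 44.92 and 36.17.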
